A study of Mus musculus with 8 samples.

Results

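The Iroquois homeobox genes Irx1 to Irx6 were followed in mouse embryonic hearts, in the dissected OFT/RV (the outflow tract with the right ventricle), of embryos with normal or reduced Isl1. The members were the 6 genes with these symbols in the deposited transcript table, out of 20701 gene symbols. They were represented by 8 of its 31507 transcripts, because Irx3 and Irx6 had 2 each. Each gene is described by its transcript with the most counts on average. All 6 members passed the filter on low counts, which left 13769 genes to test.

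Iroquois genes encode transcription factors of the TALE class, whose homeodomain carries an extra loop of amino acids. In mammals they lie in a pair of clusters that arose by duplication, and they pattern the nervous system, limbs, lung and heart. In the developing heart Irx4 marks ventricular muscle. Irx3 is known from the trabecular muscle and the conduction system, Irx5 from the endocardium and the ventricular wall, and Irx1 and Irx2 from the ventricular septum.

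RNA was polyadenylated and came from single C57BL/6 embryos at E10.5, with 4 libraries in the control group (CTRL, labelled wild type) and 4 in the Isl1 hypomorph group (Isl1_hypo). The hypomorph is homozygous for the allele (Isl1 f;neo/f;neo) and retains some Isl1, a LIM-homeodomain factor of the second heart field, from which the outflow tract and right ventricle form. The labels name no Cre, transgene or drug, and the allele is not restricted to a cell type. Because whole pieces of tissue were sequenced, fewer cells of a type and less RNA per cell cannot be told apart.

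The libraries held 29748458 to 46678973 counts in CTRL and 18422245 to 33050298 in Isl1_hypo. Isl1 itself was at 47.2 ± 13.3 CPM (counts scaled to a common library size) in CTRL and 9.67 ± 2.83 CPM in Isl1_hypo (SD, n = 4), and all Isl1_hypo libraries lay below all CTRL libraries (log2 fold change −2.29 ± 0.26 SE, edgeR adjusted p = 0.0077). On the first principal component of the 1000 most variable genes, with 37.8% of the variance, Isl1_hypo 3 stood at 72.0 and the other 7 libraries between −17.7 and 3.97. Isl1_hypo 1 held epithelial transcripts that the others almost lacked, such as 708 counts of the claudin gene Cldn6. RNA of genes listed for ventricular chamber muscle was present in every library: these 18 genes summed to 16837.5 to 20159.3 CPM in CTRL. In Isl1_hypo they summed to 15695.6 to 19884.8 CPM. Of these genes 14 had positive and 4 negative log2 fold changes. Myh7, the slow ventricular myosin heavy chain, was lower on average, at 4331 ± 572 CPM in CTRL and 3082 ± 371 CPM in Isl1_hypo. Its log2 fold change was −0.49, while those of Myl2 and Myl3 were 0.0044 and 0.012.

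Of the members, Irx1, Irx2 and Irx4 lie on chromosome 13, and Irx3, Irx5 and Irx6 lie on chromosome 8. On the mm9 build Irx1 is at chr13:72095680-72101171 on the minus strand, Irx2 at chr13:72766245-72771644 and Irx4 at chr13:73397945-73407068, both on the plus strand. Irx1 and Irx2 are 665.1 kb apart, and Irx2 and Irx4 626.3 kb. On chromosome 8, Irx3 is at chr8:94322428-94325553 on the minus strand, Irx5 at chr8:94881695-94885351 and Irx6 at chr8:95198188-95204855, both on the plus strand. Irx3 and Irx5 are 556.1 kb apart, and Irx5 and Irx6 312.8 kb. Isl1 is also on chromosome 13, at chr13:117088478-117099896 on the minus strand.

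The members are close relatives, which bears on how reads were assigned to them. A stretch of 60 coding bases in the homeobox, which includes the codons of the extra loop, is shown because it is where the 6 genes are most alike. Capitals mark the 55 bases that are identical in all 6 genes and lower case the 5 that vary; each is an exonic coding sequence read from mm9 in the direction of the transcript.
Irx1, chr13:72097500-72097559, minus strand: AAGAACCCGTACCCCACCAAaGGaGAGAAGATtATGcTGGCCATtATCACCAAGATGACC
Irx2, chr13:72768181-72768240, plus strand: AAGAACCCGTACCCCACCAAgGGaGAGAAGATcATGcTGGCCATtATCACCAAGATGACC
Irx4, chr13:73405040-73405099, plus strand: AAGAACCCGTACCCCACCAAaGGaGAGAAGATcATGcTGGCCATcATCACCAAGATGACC
Irx3, chr8:94324455-94324514, minus strand: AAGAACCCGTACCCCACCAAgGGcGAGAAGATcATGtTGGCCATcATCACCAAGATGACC
Irx5, chr8:94883595-94883654, plus strand: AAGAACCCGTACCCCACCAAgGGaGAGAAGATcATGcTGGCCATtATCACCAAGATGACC
Irx6, chr8:95201204-95201263, plus strand: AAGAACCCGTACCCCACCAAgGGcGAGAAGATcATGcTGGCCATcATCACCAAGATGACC

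Long identical runs between whole transcripts were nevertheless few. Over the 15 pairs of members the longest run ranged from 23 bases, between Irx2 and Irx4 and between Irx4 and Irx5, to 88 bases, between Irx3 and Irx6. Of all windows of 50 bases, 0.622% of those in Irx2, 0.723% in Irx5, 1.17% in Irx6 and 1.74% in Irx3 occurred in another member, and no window of Irx1 or Irx4 did. A read of this length could therefore be shared only over a small part of each transcript. Irx3 is less certain for another reason, because the non-coding gene D230002A01Rik overlaps it on the other strand and the counts ignore strand.

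In CTRL tissue Irx4 was by far the most abundant member per length of transcript. The deposited RPKM values, which scale counts by depth and transcript length, gave 12.2 ± 1.28 RPKM for Irx4 (SD, n = 4). Irx5 followed with a level of 2.22 ± 0.387 RPKM and Irx3 with 1.61 ± 0.225 RPKM. Each of these members lay above the next in all 4 libraries, and their ranges did not overlap. Irx2, at a level of 0.683 ± 0.304 RPKM, and Irx6, at 0.536 ± 0.272 RPKM, overlapped in range and could not be ordered. Irx1 was lowest, with a level of 0.065 ± 0.0461 RPKM.

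In Isl1_hypo tissue the order of the middle members differed. Irx4 was again first at 12.3 ± 2.26 RPKM. Irx5 at 3.05 ± 0.644 RPKM, Irx2 at 2.15 ± 0.478 RPKM and Irx3 at 2.04 ± 0.279 RPKM overlapped in range with the neighbour in the order, and Irx2 exceeded Irx3 in 2 of 4 libraries. Irx2 thus lay beside Irx6 in CTRL and beside Irx3 in Isl1_hypo. Irx6 at 0.556 ± 0.196 RPKM and Irx1 at 0.161 ± 0.0607 RPKM stayed at the bottom, without overlap with the members above them.

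As a share of the summed RPKM of the 6 members, Irx4 made up 70.3% ± 5.91 in CTRL and 60.6% ± 2.40 in Isl1_hypo, and Irx2 made up 3.94% ± 1.70 and 10.6% ± 1.12 (SD, n = 4). The share of Irx2 was 2.85%, 5.91%, 2.24% and 4.77% in CTRL 1 to 4 and 11.4%, 9.24%, 10.1% and 11.6% in Isl1_hypo 1 to 4. The groups did not overlap in this share. For Irx4 they did, since CTRL 4, at 61.7%, lay within the Isl1_hypo range of 57.7% to 63.6%.

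**Figure D1:**
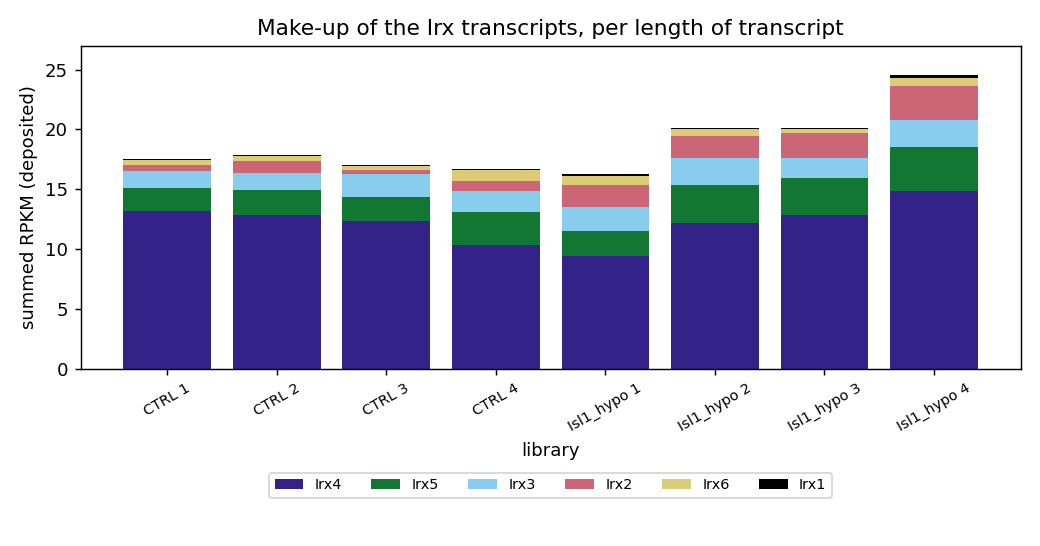
Stacked bars give the deposited RPKM of each Irx gene in each of the 8 libraries (vertical axis, summed RPKM; horizontal axis, library). Irx4 fills most of every bar, and the Irx2 segment is 2.24% to 5.91% of the CTRL bars and 9.24% to 11.6% of the Isl1_hypo bars.

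Between the groups, every member had a positive log2 fold change (Isl1_hypo against CTRL), with a median of 0.42 where the median of all genes tested was 0.0057 and 50.9% of them were above 0. None of the 6 passed an adjusted p under 0.05 in the quasi-likelihood test of edgeR, a threshold that 0.269% of genes passed. At an unadjusted p under 0.05, 2 of 6 passed, Irx2 and Irx5, both higher in Isl1_hypo, beside 11.9% of all genes, or 5.69% counting those that were higher. One member, Irx2, had groups that did not overlap in CPM, which held for 8.5% of genes and, in the higher direction, for 4.06%. The signs of Irx4 and Irx6 depended on single libraries, as given for each of them.

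**Figure D2:**
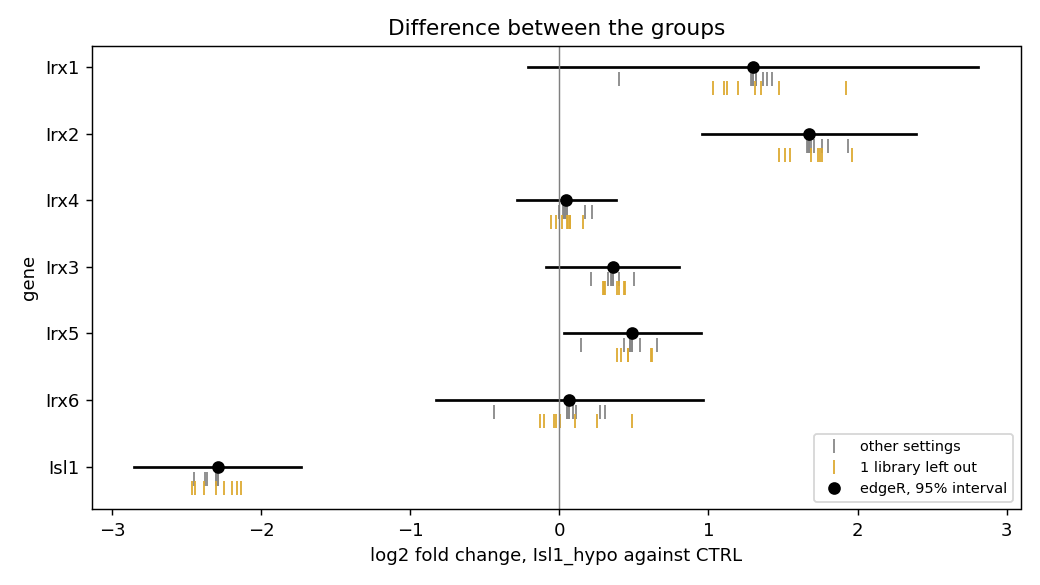
Log2 fold change of each Irx gene and of Isl1 (horizontal axis, Isl1_hypo against CTRL; vertical axis, gene): black points and lines are the edgeR estimate and its 95% interval, grey ticks other settings and yellow ticks fits with 1 library left out. The interval of Irx2 runs from 0.96 to 2.39, and those of Irx1, Irx3, Irx4 and Irx6 include 0.

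Irx2, one of the members of the chromosome 13 cluster, differed most. It was at 2.11, 4.55, 1.66 and 3.44 CPM in CTRL 1 to 4, from 66 to 185 counts. In Isl1_hypo 1 to 4 it was at 7.98, 8.09, 9.14 and 12.5 CPM, from 147 to 360 counts. Every Isl1_hypo library was above every CTRL library, with Isl1_hypo 4 the highest and CTRL 3 the lowest. The fitted difference was 3.19-fold, with a 95% interval of 1.94-fold to 5.25-fold (log2 fold change 1.68 ± 0.33 SE), and it ranked 62 of the 13769 genes by p. With an unadjusted p of 0.000296 and an adjusted p of 0.0657, edgeR did not call it. DESeq2 and limma-voom, the latter with a quality weight for each library, did call it, at adjusted p-values of 0.000205 and 0.0273, for nearly the same log2 fold changes of 1.68 and 1.69. They called 2.32% and 0.944% of all genes, and no other member. The exact permutation test gave p = 0.0286, the smallest that 70 assignments allow. With each library left out in turn the log2 fold change stayed between 1.48 and 1.96 and the edgeR adjusted p between 0.0769 and 0.175. Without Isl1_hypo 4 the exact permutation p was 0.0571, from fewer possible assignments. The groups still did not overlap there, at 7.98 to 9.14 CPM in Isl1_hypo and 1.66 to 4.55 CPM in CTRL. With Isl1_hypo 1 and Isl1_hypo 3 both left out, a choice made after seeing the data, the log2 fold change was 1.80 at an edgeR adjusted p of 0.128.

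Irx1, at the end of the cluster away from Irx4, was barely detected. It had 4, 7, 5 and 21 counts in CTRL 1 to 4, or 0.128, 0.172, 0.124 and 0.449 CPM. The Isl1_hypo libraries had 9, 9, 17 and 24 counts, or 0.489, 0.337, 0.537 and 0.83 CPM. CTRL 4 lay above Isl1_hypo 2, so the groups overlapped. The counting intervals are wide at this depth: the exact 95% Poisson interval for the 4 counts of CTRL 1 runs from 1.09 to 10.2 counts, and that for the 24 counts of Isl1_hypo 4 from 15.4 to 35.7. The log2 fold change was 1.30 ± 0.69 SE, with a 95% interval of −0.21 to 2.81, and passed neither edgeR (adjusted p = 0.491) nor the exact permutation test (p = 0.0571). Without CTRL 4 the exact permutation p was 0.0286 and the edgeR log2 fold change 1.92, at an adjusted p of 0.441. Leaving out Isl1_hypo 2 instead also ended the overlap, with an exact permutation p of 0.0571 and an edgeR log2 fold change of 1.47. With 1 library left out fewer assignments are possible, so these exact p-values do not compare directly with the one above.

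Irx4, the ventricular member of the same cluster, showed no detectable difference. It was at 54.6, 54.4, 52.8 and 43.8 CPM in CTRL 1 to 4. It was at 39.8, 52.2, 56.6 and 63.6 CPM in Isl1_hypo 1 to 4. The Isl1_hypo libraries held both the lowest and the highest value, so they enclosed the CTRL range. With 733 to 2212 counts per library this was the most precise of the 6 estimates: the fold was 1.03, with a 95% interval of 0.821 to 1.30 (log2 fold change 0.047 ± 0.15 SE, edgeR adjusted p = 0.930). The sign is not fixed by the data, as the log2 fold change was −0.024 without CTRL 4, −0.053 without Isl1_hypo 4 and −0.0023 with limma-voom.

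**Figure D3:**
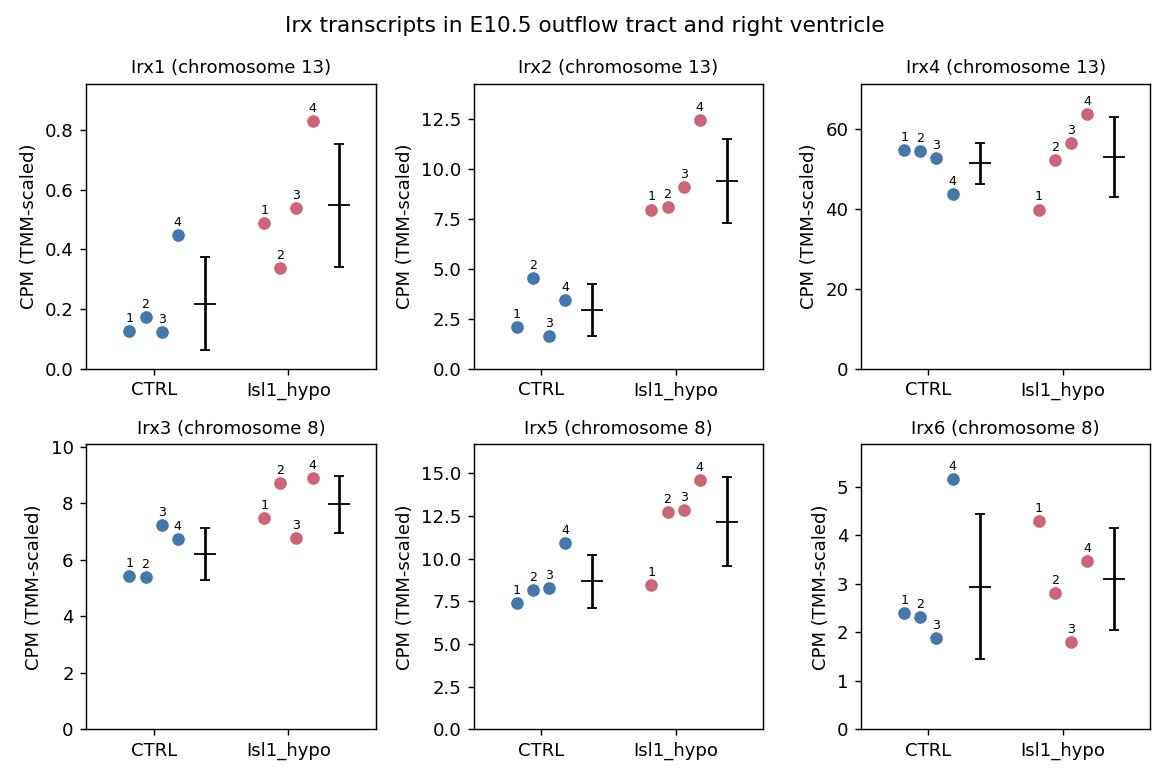
TMM-scaled CPM of each Irx gene by group, with axes from 0: points are libraries with their replicate number, and the black line with bars is the mean ± SD (n = 4). Irx2 is at 1.66 to 4.55 CPM in CTRL and 7.98 to 12.5 CPM in Isl1_hypo, and the ranges of the other 5 genes overlap.

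Within the chromosome 13 cluster, Irx2 and Irx4 thus stood in a different proportion in the groups. For every 100 counts of Irx4 the CTRL libraries 1 to 4 held 3.87, 8.36, 3.15 and 7.87 counts of Irx2. The Isl1_hypo libraries held 20.1, 15.5, 16.2 and 19.6. These values did not overlap, and they do not depend on the scaling of the libraries. The difference between the responses of the 2 genes was not tested.

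On chromosome 8, Irx5 and Irx3 were a little higher in Isl1_hypo, by amounts near the spread between libraries. Irx5 was at 7.39, 8.17, 8.27 and 10.9 CPM in CTRL 1 to 4. In Isl1_hypo 1 to 4 it was at 8.47, 12.7, 12.9 and 14.6 CPM. Isl1_hypo 2, 3 and 4 lay above all CTRL libraries, and Isl1_hypo 1 lay below CTRL 4. The fold was 1.40, with a 95% interval of 1.02 to 1.93 (log2 fold change 0.49 ± 0.21 SE), at an unadjusted p of 0.0395 and an edgeR adjusted p of 0.391, and the exact permutation test gave p = 0.0571. The unadjusted p passed 0.05 without CTRL 4 (0.0181) or Isl1_hypo 1 (0.00932) and did not without any other single library, the highest being 0.118 without Isl1_hypo 4. Nor did it pass with limma-voom (0.0541), with Y-linked genes as a covariate (0.0643) or with globin genes as one (0.645, at a log2 fold change of 0.15).

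Irx3 was at 5.44, 5.41, 7.25 and 6.75 CPM in CTRL 1 to 4. It was at 7.49, 8.73, 6.76 and 8.89 CPM in Isl1_hypo 1 to 4. Only Isl1_hypo 3 fell within the CTRL range. The fold was 1.28, with a 95% interval of 0.941 to 1.75 (log2 fold change 0.36 ± 0.20 SE, edgeR adjusted p = 0.515, exact permutation p = 0.0571). The ratio of Irx5 to Irx3 in RPKM was 1.38 ± 0.204 in CTRL and 1.51 ± 0.319 in Isl1_hypo (SD, n = 4), with ranges that overlapped.

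Irx6 varied more among the libraries of a group than between the groups. It was at 2.40, 2.31, 1.89 and 5.15 CPM in CTRL 1 to 4. It was at 4.29, 2.81, 1.80 and 3.46 CPM in Isl1_hypo 1 to 4. CTRL 4 held the highest value and Isl1_hypo 3 the lowest. The fold was 1.05, with a 95% interval of 0.562 to 1.95 (log2 fold change 0.066 ± 0.41 SE, edgeR adjusted p = 0.962), an interval that holds differences of nearly 2-fold in either direction. The log2 fold change was negative when any of CTRL 1, CTRL 2, CTRL 3 or Isl1_hypo 1 was left out, reaching −0.13.

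The genes around the clusters were examined beside the members. For each cluster the 10 genes of the table nearest on each side by the mm9 annotation were taken. Many were far from the cluster. On chromosome 13 they lay 1072.3 to 3364.5 kb before it and 50.2 to 463.5 kb after it. On chromosome 8 they lay 130.1 to 3162.4 kb before and 146.4 to 575.3 kb after. Of 20 genes around the chromosome 13 cluster 15 could be tested, and 0 passed an adjusted p under 0.05; at an unadjusted p under 0.05, edgeR gave 1 higher (Nsun2, 0.25) and 1 lower (Slc12a7, −0.60 on the log2 scale), beside 5.69% and 6.17% of all genes. DESeq2 called Slc12a7 and limma-voom called 0. Their median log2 fold change was −0.060. Around the chromosome 8 cluster 11 of 20 were tested, 0 passed the adjusted threshold, and 2 had an unadjusted p under 0.05, both lower and beside the same 6.17% of all genes, Tox3 at −0.63 and Mmp2 at −0.47 on the log2 scale; DESeq2 and limma-voom also called 0. The median there was −0.075. Fto, whose introns are known to hold regulatory elements of Irx3 and Irx5, had a log2 fold change of −0.012 ± 0.095 SE. The log2 fold changes of the tested neighbours ran from −1.62 (Adcy2, ± 0.95 SE) to 0.25 on chromosome 13 and from −0.63 to 0.20 on chromosome 8. Slc12a7 and Nsun2 were named after their values were seen, as were Adcy2, Tox3, Mmp2 and Fto.

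**Figure D4:**
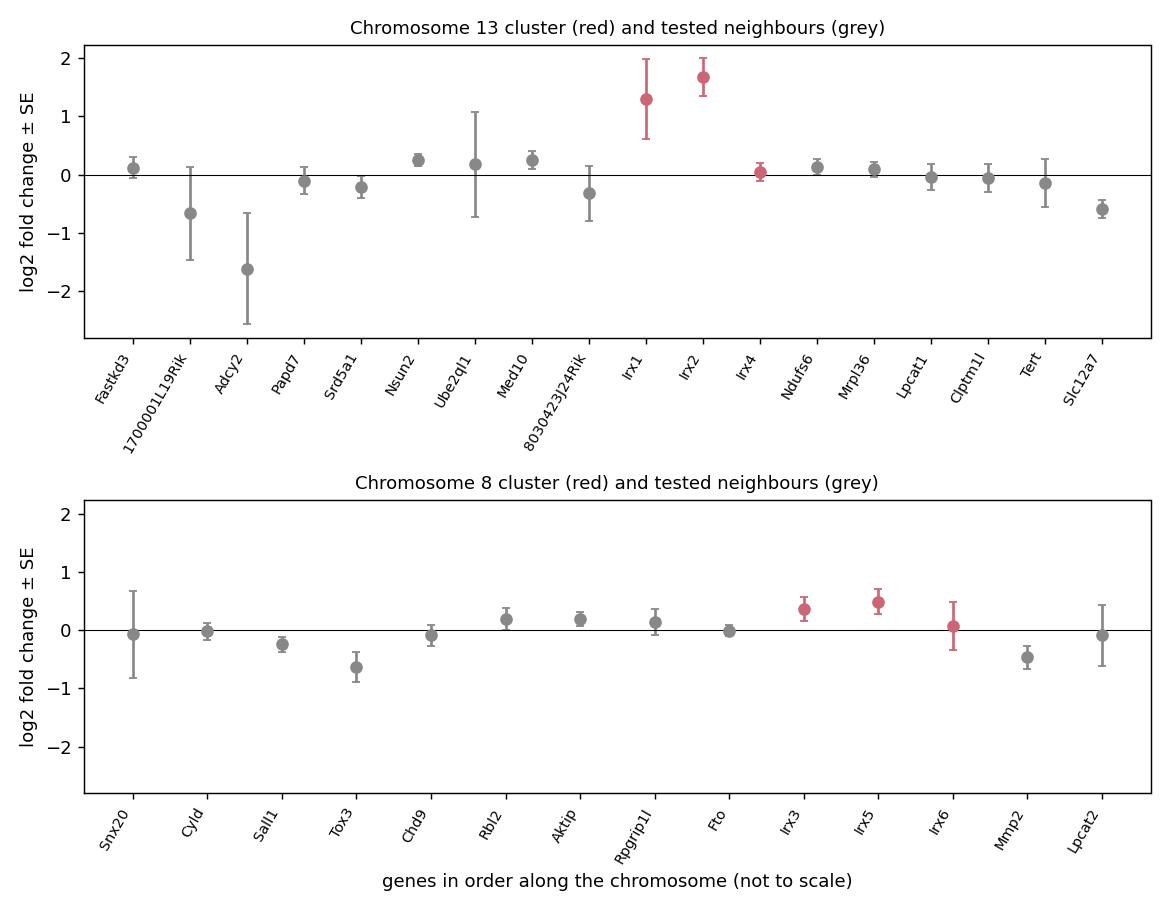
Log2 fold change ± SE (vertical axis, Isl1_hypo against CTRL) of the tested genes in and around each cluster, in chromosome order and not to scale; red marks the Irx genes and grey their neighbours. Irx2 at 1.68 is the highest point of the chromosome 13 panel, where the neighbours run from −1.62 to 0.25, and those of chromosome 8 run from −0.63 to 0.20.

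The promoters of Irx2 and Irx4 are shown because these genes of 1 cluster had the most and among the least different values. Each runs from 250 bases before to 50 bases after the RefSeq start and was found unchanged in mm9. Capitals mark TAAT, the core that LIM homeodomain factors such as Isl1 prefer.
Irx2 promoter, chr13:72766018-72766317, plus strand: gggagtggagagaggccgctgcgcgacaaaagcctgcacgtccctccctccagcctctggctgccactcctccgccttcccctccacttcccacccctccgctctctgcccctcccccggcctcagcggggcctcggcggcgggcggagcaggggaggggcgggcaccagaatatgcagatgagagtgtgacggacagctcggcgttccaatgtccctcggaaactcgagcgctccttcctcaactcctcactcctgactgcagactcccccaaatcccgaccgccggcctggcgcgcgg
Irx4 promoter, chr13:73397695-73397994, plus strand: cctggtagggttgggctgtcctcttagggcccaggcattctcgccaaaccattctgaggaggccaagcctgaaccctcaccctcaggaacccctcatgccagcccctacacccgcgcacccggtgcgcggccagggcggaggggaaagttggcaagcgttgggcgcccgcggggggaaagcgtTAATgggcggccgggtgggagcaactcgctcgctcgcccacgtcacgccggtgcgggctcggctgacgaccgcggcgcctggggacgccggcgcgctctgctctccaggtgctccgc

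Searched on both strands, TAAT occurred once in the Irx4 promoter and in neither the Irx2 promoter nor that of Irx3, while 58% of 32851 promoters of this length held it. The palindrome ACANNTGT, to which Iroquois proteins bind, occurred in none of these 3 promoters and in 7.38% of all promoters. The RefSeq table matched 3 of the 6 members, Irx2, Irx3 and Irx4. A match of letters is a description of the window and says nothing of binding.

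Genes that Iroquois factors are known to regulate or act with in the heart were then described as a list of 23, all of which were tested. At an adjusted p under 0.05 in edgeR, 1 rose and 0 fell, beside 0.145% and 0.123% of all genes. At an unadjusted p under 0.05, 3 were higher and 5 lower, beside 5.69% and 6.17% of all genes, and the median log2 fold change was −0.28, or −0.11 without Isl1_hypo 3. DESeq2 called 2 higher, Nppa among them, and 2 lower (Gata3, Myh7), and limma-voom called 2 higher, again with Nppa. The gene called by edgeR was Nppa, the gene of atrial natriuretic peptide and a marker of working and trabecular myocardium, which rose from 313 ± 59.5 to 686 ± 133 CPM (SD, n = 4; log2 fold change 1.13 ± 0.17 SE, edgeR adjusted p = 0.0303). Nppb, the gene of the B-type natriuretic peptide, was at 0.51 ± 0.19 (unadjusted p = 0.0196).

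Among the genes of that list with negative values was Hand1, a transcription factor of the left ventricle and outflow tract, which was at 104 ± 18.9 CPM in CTRL and 50.5 ± 26.1 CPM in Isl1_hypo (log2 fold change −1.04 ± 0.33 SE, edgeR adjusted p = 0.277). The transcription factor Gata3 was at −0.62 (adjusted p = 0.179), the myosin heavy chains Myh7 and Myh6 at −0.49 (0.165) and −0.31 (0.391), and the potassium channel gene Kcnh2 at −0.38 (0.406). Of the connexin genes, Gja5 was at 0.24, Gja1 at 0.48 and Gjc1 at −0.35 on the log2 scale, and none passed an unadjusted p under 0.05. Kcnd2 and its partner Kcnip2, the potassium channel genes that Irx5 is known to hold down in the adult ventricular wall, were low, at 2.41 ± 0.778 and 1.17 ± 0.542 CPM in CTRL, with log2 fold changes of −0.49 ± 0.49 and −1.16 ± 0.86 SE. The transcription factors Nkx2-5, Tbx5, Hand2 and Tbx2 had log2 fold changes of 0.14, 0.14, 0.013 and −0.28. Other members of the list, Acta1 (0.35), Rxra (−0.0030), Vdr (0.28), Trps1 (−0.31), Cxcl12 (−0.31) and Cxcr4 (−0.40), did not pass an unadjusted p under 0.05 either.

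Marker lists of the tissues that express Irx genes and of other cells are read beside the shares of all genes, which at an adjusted p under 0.05 were 0.145% higher and 0.123% lower in edgeR, 2.32% in DESeq2 and 0.944% in limma-voom, and at an unadjusted p under 0.05 in edgeR 5.69% higher and 6.17% lower. The trabecular myocardium had 1 of 10 genes higher at an adjusted p under 0.05 in edgeR (Nppa) and a median log2 fold change of 0.38, with 7 positive and 3 negative values. DESeq2 and limma-voom each called 3 higher and 1 lower. The ventricular chamber list, which shares Nppa and other genes with it, had 1 of 18 called higher by edgeR, 4 higher and 1 lower by DESeq2 and 3 higher by limma-voom; its median was 0.11, and 0.017 without Isl1_hypo 2. Outflow tract and second heart field genes had 2 of 18 called lower by edgeR, Bmp4 (−0.94) and Fgf10 (−0.93), and 3 by each of the other tools, with a median of −0.42 that was −0.27 without Isl1_hypo 3. At an unadjusted p under 0.05 in edgeR the trabecular list had 5 higher and 1 lower. The ventricular chamber list had 5 higher and 2 lower, and the outflow tract list 0 higher and 8 lower. The 12 other TALE homeobox genes are relatives of the Irx family in the Meis, Pbx, Pknox and Tgif groups and Mkx. Of these, 0 passed the adjusted threshold in edgeR, and DESeq2 and limma-voom called 0 as well. At an unadjusted p under 0.05 in edgeR 2 passed, Meis3 at −0.39 and Pbx3 at −0.41 on the log2 scale. The median of the 12 was −0.095, and ran from −0.11 to −0.041 with 1 library left out.

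Markers of other cells moved with the groups, and so with Irx2. Blood genes were higher in Isl1_hypo: globin transcripts took 0.212%, 0.273%, 0.464% and 1.19% of counts in CTRL 1 to 4 and 1.86%, 1.18%, 2.44% and 1.53% in Isl1_hypo 1 to 4. CTRL 4 and Isl1_hypo 2 held nearly equal shares and were the only libraries where the groups overlapped. Irx2 was at 3.44 CPM in the former and 8.09 CPM in the latter. In an edgeR fit that also held the mean log2 CPM of globin genes, Irx2 was at 1.71 ± 0.55 SE (unadjusted p = 0.0111, adjusted p = 0.9996). The log2 fold change was 0.40 ± 0.99 SE for Irx1, 0.21 ± 0.33 for Irx3 and 0.22 ± 0.25 for Irx4. It was 0.15 ± 0.31 SE for Irx5 and −0.44 ± 0.56 for Irx6. Because globin share and group nearly coincide, this fit cannot separate them. All 11 tested erythroid markers had an unadjusted p under 0.05 in the higher direction, of which Epb42 was called, and their median log2 fold change was 1.72.

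The 8 epicardial markers summed to 61.7 to 380 CPM in CTRL and 451 to 767 CPM in Isl1_hypo, with a median log2 fold change of 1.15; 7 of 8 were higher at an unadjusted p under 0.05, 0 at the adjusted one in edgeR (2 in DESeq2, 0 in limma-voom), and Upk3b (1.53), Sema3d (1.32) and Wt1 (1.07) had the lowest p. Isl1_hypo 3 had the most epicardial RNA and Isl1_hypo 4 the most Irx2. The 16 epithelial markers, of which 8 were tested, summed to 128 to 196 CPM in CTRL and 203 to 463 CPM in Isl1_hypo. All 8 had positive values, 4 with an unadjusted p under 0.05 and 0 adjusted in edgeR (2 in DESeq2, 0 in limma-voom), and a median of 0.99 that was 0.49 without Isl1_hypo 1; the keratin genes Krt8, Krt18 and Krt19 were at 0.92, 0.80 and 0.77 on the log2 scale, and Shh was at 0 counts in every library. In Isl1_hypo 1, with the highest epithelial sum, Irx2 was at 7.98 CPM, and without this library its log2 fold change was 1.75.

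Of 11 atrial genes edgeR called 1, lower (Sln, −2.28), DESeq2 4 higher and 1 lower, and limma-voom 1 in each direction; the median was 0.11, and ran from 0.043 to 0.21 with 1 library left out. Endocardial and endothelial markers had a median of −0.16, cushion and arch mesenchyme −0.39, neural crest −0.49, macrophages −0.83 and the neural tube and neurons −0.25, with 0 of 12, 0 of 12, 0 of 6, 0 of 8 and 0 of 6 tested genes called by edgeR and 2, 4, 2, 0 and 1 with an unadjusted p under 0.05, all lower. DESeq2 called 1, 2, 0, 0 and 0 of them and limma-voom 0, 1, 0, 0 and 0. Without Isl1_hypo 3 the neural crest median was −0.15, that of macrophages −0.50 and that of the neural list −0.15; without Isl1_hypo 1 the first of these was −0.85 and the second −1.37, and without CTRL 1 the neural median was −0.088. Neurog1 and Neurog2, which define neuronal precursors, were at 0 in all libraries. Irx1 to Irx5 were highest in Isl1_hypo 4 and Irx6 in CTRL 4.

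**Figure D5:**
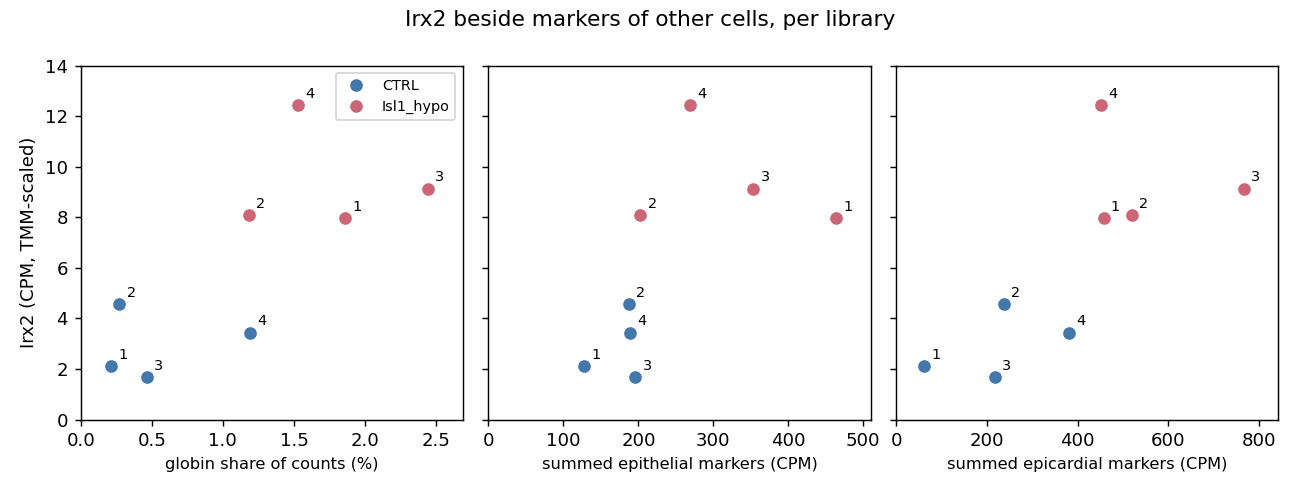
Irx2 in CPM (vertical axis) against the globin share of counts, the summed epithelial markers and the summed epicardial markers (horizontal axes) in each library, with replicate numbers. The groups overlap in globin share only at CTRL 4 and Isl1_hypo 2, at 1.19% and 1.18%, with Irx2 at 3.44 and 8.09 CPM.

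Y-linked genes separated the libraries by sex, with a summed level of 204 CPM in CTRL 3 and 223 to 277 CPM in Isl1_hypo 1, 3 and 4, and at most 0.337 CPM in the others. Among the former Irx2 was at 1.66 CPM in the CTRL library and at 7.98, 9.14 and 12.5 CPM in the Isl1_hypo libraries. Among the latter it was at 2.11, 4.55 and 3.44 CPM in CTRL and at 8.09 CPM in Isl1_hypo. Each time 1 of the groups held only 1 library. With the Y-linked genes as a covariate, added after seeing the data, its log2 fold change was 1.93 at an edgeR adjusted p of 0.271. The part of blood, epicardial and epithelial cells in the values of the Irx genes was not tested.

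Genes with the pattern most like that of an Irx gene over the 8 libraries were sought among 10743 genes with a mean of at least 5 CPM. The measure was the root mean square difference of log2 CPM after each gene was centred on its own mean. Nearest to Irx2 were Hfe2 (0.326), the gene of hemojuvelin, a muscle and liver protein of iron control, then Epha4 (0.416), an ephrin receptor, and Lyz2 (0.434), a lysozyme. Their log2 fold changes were 1.73, 1.40 and 1.57, with edgeR adjusted p-values of 0.0342, 0.0172 and 0.0824. Since these genes were chosen for likeness to Irx2 over both groups, a similar difference follows from the choice and is no separate evidence. For Irx5 the nearest were the potassium channel gene Kcng2 (0.120), the guanylate cyclase gene Gucy1a2 (0.140) and the amino acid transporter gene Slc7a5 (0.146). Irx3 lay nearest to Tusc2 (0.0837), Cln6 (0.103) and Slc9a3r2 (0.113), and Irx4 to Fam91a1 (0.0515) and Vash2 (0.0863). The members with a wider spread had the larger distances: the SD of log2 CPM over the 8 libraries was 1.04 for Irx2, 0.37 for Irx5, 0.27 for Irx3 and 0.21 for Irx4.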

How the data were processed

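RNA-seq was analysed from 4 CTRL and 4 Isl1_hypo embryos, grouped by the sample labels. The authors aligned reads to mm9 with STAR and counted exon reads per RefSeq transcript with HOMER on both strands. The deposited counts are raw, and the deposited RPKM values were computed by the authors from them with edgeR. The columns of the authors' own DESeq2 comparison (mean normalized signal, log2 fold change and its error, a test score and p-values) were deposited too and were not used. The members and gene lists were chosen with earlier results of these data known.

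One transcript per symbol was kept, filterByExpr left 13769 genes, and TMM-scaled counts were tested with glmQLFit and glmQLFTest of edgeR 4.0.16 in R 4.3.3 with Benjamini-Hochberg adjustment over all genes. The SE is the log2 fold change divided by the root of the F statistic, and its 95% interval uses the residual and prior degrees of freedom. The biological coefficient of variation was 26.4%. Log2 CPM had a prior count of 2. Single values were compared by an exact 2-sided permutation test over 70 assignments, with a smallest p of 0.0286. With 1 library left out it has fewer assignments, so those p-values do not compare directly. Each library is 1 embryo. Poisson intervals cover counting error only, since reads carry no molecular identifiers. The procedure was tested on simulated data.

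Named genes were Irx1 to Irx6, Isl1, the Irx-linked genes, 3 genes most like each Irx gene with a mean of at least 5 CPM, and from other lists those with an adjusted p under 0.05 or otherwise up to 3 with the lowest p and a mean of at least 5 CPM. Cldn6, Shh, Neurog1, Neurog2 and the cluster neighbours were named outside this rule, and some genes that it names are not reported here. Alternatives were DESeq2 1.42.0, limma-voom with sample quality weights (limma 3.58.1), other size factors and filters, the longest transcript, a replicate block, removal of globin genes, globin or Y-linked covariates and leaving out libraries. Sequences came from RefSeq promoters (GRCm38.p6, matched to mm9) and from GENCODE transcripts of mm9.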

Additional observations from a re-analysis of the deposited data

Results flagged for a closer look

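Irx4 in CTRL 4 stood apart from the other libraries of its group. Its log2 CPM was 5.45, and the nearest of the other CTRL libraries was at 5.72, a gap of 0.847 of the range of the group, beyond Dixon's 95% critical value for 4 samples. It was 1 of 14 groups examined, of which chance alone would place 0.7 past this value. CTRL 4 was also the CTRL library with the highest Irx1, Irx5 and Irx6 and the highest globin share, at 1.19% of counts.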

How the results depend on the processing

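Depth limits Irx1, which had 4 to 24 counts per library and gave no value under a minimum of 10 counts in every library. Irx2 was called by DESeq2 (1.68, adjusted p = 0.000205) and limma-voom (1.69, adjusted p = 0.0273) and by none of the other alternatives. The replicate numbers did not pair the libraries, as deviations of equal numbers correlated at −0.0209 to 0.0219. With the replicate number as a block the log2 fold change of Irx2 was 1.76 (adjusted p = 0.111), that of Isl1 −2.29 (adjusted p = 0.0722), and 0 genes were called by edgeR beside 1582 at an unadjusted p under 0.05. With globin as a covariate Isl1 was at −2.30 (adjusted p = 0.519), Irx6 at −0.44, and 0 genes were called, with 499 at an unadjusted p under 0.05. Against 37 genes called by edgeR, DESeq2 called 319, limma-voom 130 and edgeR with the Y-linked covariate 3. Leaving out 1 library gave 4 to 48 genes, the lowest number without CTRL 3.

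Irx4 changed sign with limma-voom (−0.0023) and with total counts in place of TMM in the exact test (−0.011). With 1 library left out its log2 fold change ran from −0.053 to 0.16 and its difference in mean log2 CPM from −0.065 to 0.16. For Irx6 these ran from −0.13 to 0.49 and from −0.062 to 0.42. The difference in mean log2 CPM ran from 1.004 to 1.52 for Irx1 and from 1.51 to 1.98 for Irx2, which was 1.60 without Isl1_hypo 4. The median of the ventricular chamber list ran from 0.017, without Isl1_hypo 2, to 0.18, and that of the chromosome 13 neighbours from −0.16, without CTRL 1, to 0.14, without CTRL 3. Medians of the chromosome 8 neighbours ran from −0.18 to 0.0094 with 1 library left out. The cause of these changes was not tested.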
